A study of Mus musculus with 12 samples.

Results

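Mouse embryonic fibroblasts lacking Gdap1 (Gdap1-null, KO) were compared with wild-type (WT) fibroblasts at day 4, using the 3 arrays titled as Gdap1-null day 4 and the 3 titled as wild type day 4, which are 6 of the 12 arrays of the series. The other 6 arrays, 3 KO and 3 WT, came from the same kinds of cells at day 0. All cells were cultured in DMEM with 10% fetal bovine serum, and their total RNA was extracted with Trizol, biotin-labelled and measured on Affymetrix arrays, which use 1 colour. One treatment description is shared by all samples: an overnight transduction, either mock or with the OSKM factors, and 4 more days of growth. It does not say which transduction each group had, so the WT day 4 and KO day 4 cells are described here by genotype and day. The labels name no strain, embryo age or sex, no way in which Gdap1 was removed, and no culture, animal or batch behind a replicate, so the p-values measure the spread between these arrays, which may be technical.

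OSKM stands for Oct4 (Pou5f1), Sox2, Klf4 and Myc, a set of transcription factors with which fibroblasts are reprogrammed to a pluripotent state. In the first days of that process fibroblasts are known to divide faster, to lose mesenchymal traits, to fragment their mitochondria and to shift from respiration towards glycolysis. Gdap1 sits in the outer membrane of mitochondria, where it promotes fission, acts in calcium handling and redox balance, and is mutated in forms of Charcot-Marie-Tooth neuropathy. The comparison asks which genes differ between cells with and without it at day 4.

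Each array gave log2 probe-set levels, and 22180 genes were tested, each by 1 probe set. A difference below is the mean log2 level of the KO arrays minus that of the WT arrays, with the standard error of the model (SE) and n = 3 arrays per group, and is compared between arrays for the same gene only. A gene is called when limma's Benjamini-Hochberg adjusted p over all genes was under 0.05. Array medians lay between 5.22 and 5.32, and the median difference over all genes was 0.00, moving by at most 0.01 under other scalings. The median SD of a gene was 0.13 among the WT and 0.12 among the KO day 4 arrays. In such bulk RNA, fewer cells of a type and less RNA per cell cannot be told apart.

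WT day 4 replicate 1 stood apart from its group. Its Pearson correlation across genes was 0.986 to 0.987 with the other WT day 4 arrays and 0.987 to 0.988 with the KO day 4 arrays, whereas WT replicates 2 and 3 correlated at 0.996 with each other and the KO arrays at 0.993 to 0.995. Counts are therefore given with it and without it, as are the values of named genes that gained or lost a call, or whose called fold or log2 difference moved by over 1.5 times, without it. Without it the WT day 4 group holds 2 arrays. For the 5929 genes called without that array, its level can be placed on a scale from 0, the mean of WT replicates 2 and 3, to 1, the mean of the KO arrays. The median position was 0.46 with quartiles at 0.20 and 0.75, and 45.8% of the genes lay nearer to the KO mean. These genes were chosen on the arrays that set both ends of the scale.

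**Figure D1:**
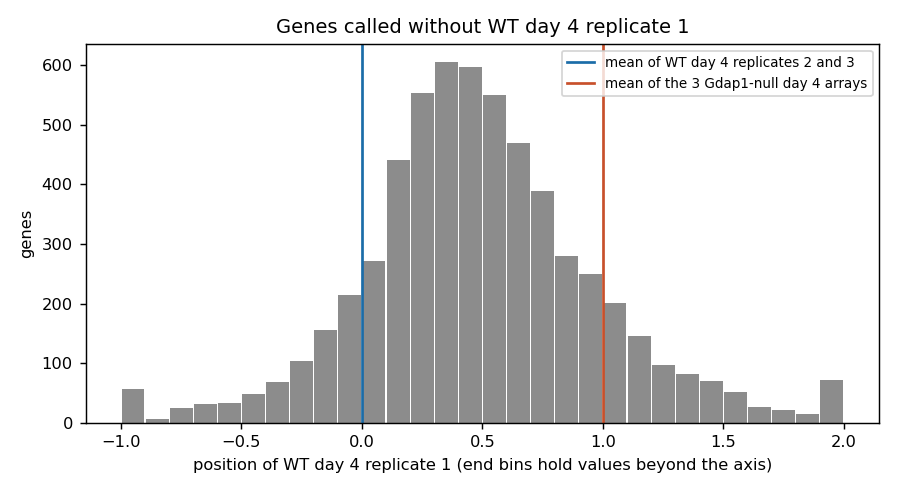
Histogram of the position of WT day 4 replicate 1 for the 5929 genes called without it (horizontal axis, 0 at the mean of WT replicates 2 and 3 and 1 at the KO mean; vertical axis, number of genes; the end bars hold values beyond the axis). The bulk of the genes lies between the ends of the scale, with the median at 0.46.

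3 promoters are shown because their genes belong to groups whose called members, with all arrays, went in a single direction. Each promoter holds a motif named for the regulators of its group. In the interferon effector and hypoxia groups the mean of WT replicate 1 lay within the KO range, as given below. For each group this is the called member with the smallest p among genes with a single window in the table, taken from RefSeq on the GRCm38.p6 build, 5′ to 3′ on the strand of the gene, with the motif match in capitals. Oas3, a 2′-5′-oligoadenylate synthase of the antiviral response, holds GAAANNGAAA, a core of the interferon-stimulated response element, in chr5:120777610-120777909 on the minus strand. P4ha1, a collagen prolyl hydroxylase induced by low oxygen, holds the core of the hypoxia response element, ACGTG, read here on the opposite strand, in chr10:59323046-59323345 on the plus strand. Mcm5, a subunit of the replicative helicase, holds TTTGGCGC, a form of the E2F site, also on the opposite strand, in chr8:75109259-75109558 on the plus strand.
Oas3: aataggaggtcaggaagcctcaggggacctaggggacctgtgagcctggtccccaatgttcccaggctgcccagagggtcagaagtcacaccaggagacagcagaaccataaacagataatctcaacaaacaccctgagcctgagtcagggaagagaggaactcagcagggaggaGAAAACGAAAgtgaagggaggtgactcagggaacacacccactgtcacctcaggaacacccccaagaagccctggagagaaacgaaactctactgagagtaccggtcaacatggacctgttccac
P4ha1: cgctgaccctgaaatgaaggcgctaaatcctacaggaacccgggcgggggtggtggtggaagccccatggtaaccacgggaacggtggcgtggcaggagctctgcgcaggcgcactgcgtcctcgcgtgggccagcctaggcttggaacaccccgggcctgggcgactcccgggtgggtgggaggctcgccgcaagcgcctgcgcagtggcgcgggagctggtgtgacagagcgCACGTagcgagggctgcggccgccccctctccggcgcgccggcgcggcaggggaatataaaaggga
Mcm5: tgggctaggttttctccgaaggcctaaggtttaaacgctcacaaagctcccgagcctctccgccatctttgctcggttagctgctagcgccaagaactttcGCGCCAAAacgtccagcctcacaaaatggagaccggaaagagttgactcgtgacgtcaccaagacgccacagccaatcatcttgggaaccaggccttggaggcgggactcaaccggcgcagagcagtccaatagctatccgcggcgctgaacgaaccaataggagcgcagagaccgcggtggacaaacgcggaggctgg

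Both strands were searched, and windows of 1 gene can overlap. GAAANNGAAA was found in 15 of the 27 windows of the interferon effector list (55.6%) and in 3.44% of all 32851 windows. ACGTG was found in 14 of the 25 windows of the hypoxia list (56%) and in 19.6% of all windows. TTTGGCGC was found in 7 of the 46 windows of the DNA replication list (15.2%) and in 0.514% of all windows. A window existed for 24 of 35, 17 of 23 and 39 of 45 genes of these lists. A match is a description of the letters and not a site of binding.

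At day 4, 4596 of 22180 genes (20.7%) were called, of which 1850 (8.34% of all) were higher and 2746 (12.4%) were lower in KO cells. With WT replicate 1 left out, 5929 genes (26.7%) were called, 2402 higher (10.8%) and 3527 lower (15.9%). Of the calls, 1641 higher and 2611 lower genes were shared by both fits, no gene was called in opposite directions, and 761 higher and 916 lower genes were called only without that array. Leaving out WT replicate 3 in its place gave 2946 calls, 1163 higher and 1783 lower. A fit to the 6 day 4 arrays alone called 1923 genes, 748 higher and 1175 lower, and 70 of the 192 called genes eligible for naming were not called in it. Called differences of at least 2-fold were found for 199 higher and 131 lower genes, and for 367 and 194 without WT replicate 1. The KO and WT day 4 arrays did not overlap for 7014 genes (31.6% of all), called or not. Genes named for a large difference or a small p tend to be among these by that choice. The genotypes also differed at day 0, where 1242 genes (5.6%) were called, 549 higher (2.48%) and 693 lower (3.12%) in KO cells.

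Gdap1 itself, measured by probe set 17211294, lay near the bottom of the scale in every day 4 array. The 3 WT arrays read 2.82, 3.02 and 3.15 and the 3 KO arrays 3.21, 2.98 and 3.28, a difference of 0.16 ± 0.12 (limma adjusted p = 0.395). The groups overlap at a level where the probe set cannot tell the genotypes apart, so it does not check the labels. Of the transduced factors, Myc was 1.28-fold higher in KO cells, at 7.81, 7.84 and 7.80 against 7.44, 7.61 and 7.33 (adjusted p = 0.00949). The differences of Klf4 (0.11 ± 0.09), Pou5f1 (0.10 ± 0.09) and Sox2 (0.02 ± 0.12) were not called. The labels do not say whether the probe sets also read the transduced copies. From day 0 to day 4 the mean of Klf4 went from 7.22 to 10.15 in WT and from 6.99 to 10.26 in KO cells. That of Myc went from 8.48 to 7.46 and from 8.76 to 7.82. Pou5f1 went from 5.26 to 5.35 and from 5.07 to 5.45, and Sox2 from 4.17 to 4.36 and from 4.48 to 4.38. Which groups received the factors was not tested.

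Among the 15 largest called rises whose arrays did not overlap, some were at full size against every WT array, and others rested on WT replicates 2 and 3. Scpep1, a serine carboxypeptidase, read 9.51, 9.55 and 9.27 in WT and 11.34, 11.36 and 11.43 in KO arrays, 3.83-fold higher (difference 1.94 ± 0.08, limma adjusted p = 2.22e-07). The lack of overlap was a condition of the choice, and the WT arrays of Scpep1 lay close together. Elobl, a gene named for its likeness to elongin B, read 3.91, 3.93 and 4.15 in WT and 6.21, 6.49 and 6.67 in KO arrays, 5.5-fold higher. Pla2g7, the platelet-activating factor acetylhydrolase, rose 3.9-fold, and Adssl1, an adenylosuccinate synthase of muscle, 3.99-fold. Nqo1, a quinone reductase of the antioxidant response, read 7.17, 6.82 and 6.70 in WT and 9.08, 8.46 and 8.81 in KO arrays, 3.69-fold higher (adjusted p = 1.19e-05). When WT replicate 1 was left out the differences of Scpep1, Elobl, Pla2g7, Adssl1 and Nqo1 were 1.97, 2.42, 2.13, 2.15 and 2.02, little changed from 1.94, 2.46, 1.96, 2.00 and 1.88.

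In the rest of the 15, WT replicate 1 was the WT array nearest to KO except for Mcpt8, a granule protease of basophils, which was low in all 3 WT arrays (3.63, 3.72 and 3.69) and higher in KO arrays (5.26, 6.63 and 5.55). Oas2, an oligoadenylate synthase of the antiviral response, was the largest rise at 5.91-fold, with WT arrays at 9.07, 6.88 and 6.22 and KO arrays at 9.73, 10.09 and 10.05 (probe set 17452054), in the fit with all arrays. Ndufa4l2, a mitochondrial protein induced by hypoxia, read 8.69, 5.35 and 5.22 in WT and 8.75, 9.09 and 8.78 in KO arrays. In both genes WT replicate 1 lay under the lowest KO array and nearer to it than to the other WT arrays. The same held for Tgm1, a transglutaminase of the cornified envelope (5.63-fold), Bnip3, a hypoxia-induced mitophagy receptor (3.99-fold), and Mmp13, a collagenase (5.47-fold). With WT replicate 1 left out, Ndufa4l2, 5.49-fold higher with all arrays, was 12.1-fold higher, above Oas2 (10.6-fold), Mmp13 (10.5-fold), Tgm1 (10.1-fold) and Bnip3 (7.3-fold). Prg4, the lubricant proteoglycan lubricin, Kng2, a kininogen, Grem1, an antagonist of bone morphogenetic proteins, and the clone-named gene 9930111J21Rik2 were 5.12-, 4.57-, 3.76- and 3.98-fold higher. Without WT replicate 2 or without WT replicate 3 the calls of Ndufa4l2 and Bnip3 were lost, and that of Ndufa4l2 also without KO replicate 2.

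**Figure D2:**
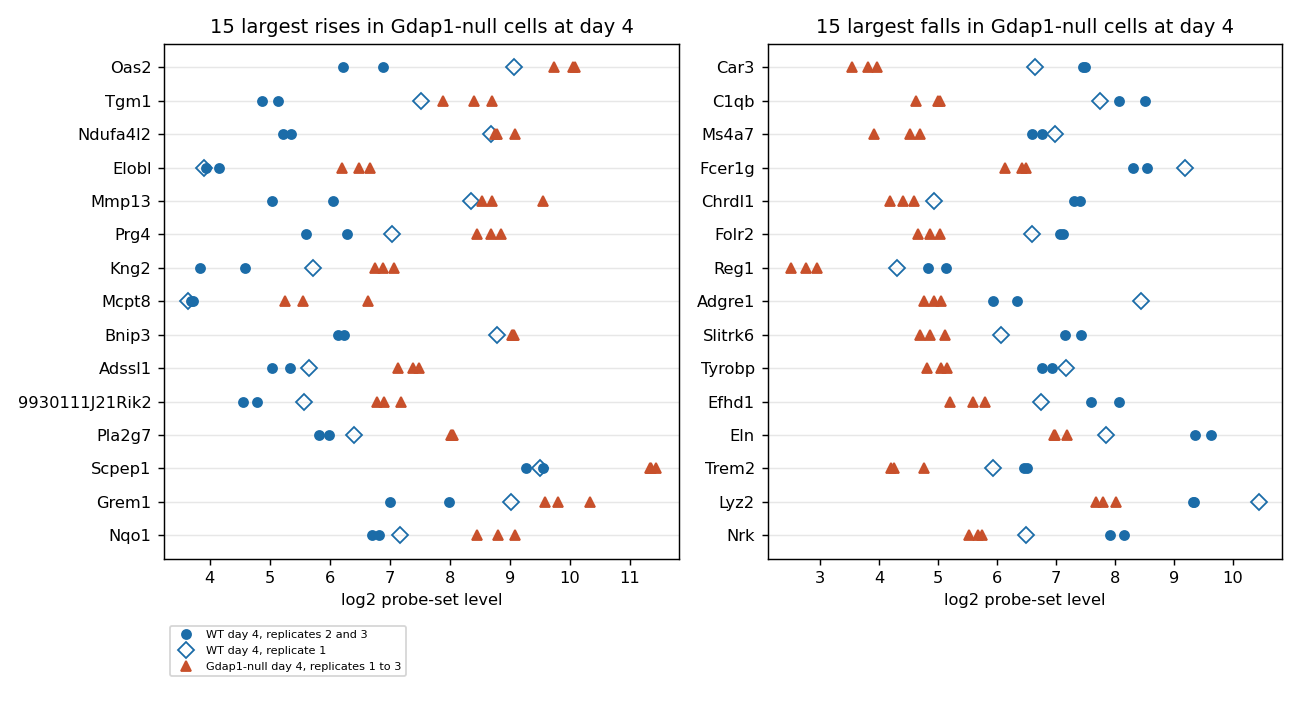
Log2 probe-set level (horizontal axis) of the 15 largest rises (left) and 15 largest falls (right) in each day 4 array; circles are WT replicates 2 and 3, open diamonds WT replicate 1 and triangles the 3 KO arrays. For Oas2, Tgm1, Ndufa4l2, Mmp13 and Bnip3 the diamond lies next to the triangles, and for Elobl, Mcpt8 and Scpep1 next to the circles.

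The 15 largest falls held 8 genes known from macrophages and related blood cells. Car3, a carbonic anhydrase abundant in muscle and fat, fell most, from 6.64, 7.45 and 7.49 in WT to 3.96, 3.82 and 3.55 in KO arrays, 10.7-fold (difference -3.42 ± 0.23, limma adjusted p = 4.06e-06, probe set 17396152). C1qb, a chain of complement C1q, read 7.74, 8.51 and 8.07 in WT and between 4.62 and 5.03 in KO arrays, a 9.36-fold fall. The 15 falls were chosen among genes whose KO and WT arrays did not overlap, so the separation of these arrays is no result. Both genes differed by nearly as much at day 0 (-3.42 and -3.12). Fcer1g and Tyrobp, signalling adaptors of immune receptors, fell 5.03- and 3.86-fold, Adgre1, the F4/80 antigen, 3.96-fold, Trem2, a receptor of macrophages, 3.71-fold, and Lyz2, lysozyme, 3.64-fold. Folr2, a folate receptor of macrophages, and Ms4a7, a membrane protein of the same cells, fell 4.2- and 5.3-fold. Adgre1 read 8.44 in WT replicate 1 and 6.34 and 5.94 in the other WT arrays, and its fall was 2.33-fold without that array.

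The remaining falls were of other kinds of genes. Reg1, a secreted lectin, read 4.31, 4.83 and 5.14 in WT and 2.76, 2.51 and 2.95 in KO arrays (4.06-fold), and Slitrk6, a membrane protein of neurites, 6.07, 7.16 and 7.42 against 5.12, 4.69 and 4.86 (3.98-fold). Efhd1, a calcium-binding mitochondrial protein, fell 3.81-fold, and Eln, elastin, 3.73-fold. Chrdl1, an antagonist of bone morphogenetic proteins, read 4.93, 7.40 and 7.30 in WT and 4.41, 4.19 and 4.59 in KO arrays (4.44-fold), and Nrk, a kinase, fell 3.66-fold. For Chrdl1, Eln, Nrk, Slitrk6 and Efhd1 the first WT array was again the one nearest to KO, and without it the fall of Chrdl1 was 7.75-fold.

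Without WT replicate 1, the 10 largest rises were led by Lcn2 and Saa3, secreted proteins of inflammation. Lcn2, lipocalin 2, read 5.43 and 5.32 in WT replicates 2 and 3, 10.58, 10.59 and 10.55 in the KO arrays and 11.22 in WT replicate 1. Its difference was 5.20 without that array (adjusted p = 9.38e-10) and 3.25 ± 1.11 with it (adjusted p = 0.0552, not called). Saa3, an acute-phase protein, differed by 4.45 without the array and by 2.59 with it (adjusted p = 0.106), and Steap4, a metalloreductase, by 3.33 and 1.91 (adjusted p = 0.12). In Lcn2, Saa3 and Steap4 WT replicate 1 exceeded every KO array. At day 4 these genes therefore separate WT replicates 2 and 3 from the other 4 arrays and do not separate the genotypes. At day 0 every KO array lay above every WT array in the 3 genes. The day 0 differences were 5.25 for Saa3 and 4.27 for Steap4 (limma adjusted p = 0.0101 and 0.00717), and 3.78 for Lcn2 (adjusted p = 0.0725, not called). Mmp3, a stromelysin (4.24 without, 2.75 with the array), Egln3, a prolyl hydroxylase that marks HIF for degradation (3.67 and 2.54), and Apol9b, an apolipoprotein L induced by interferon (3.27 and 2.35), were called in both fits. The calls of Mmp3 and Egln3 with all arrays were lost without WT replicate 2, 3 or KO replicate 1 or 3, and that of Mmp3 also without KO replicate 2.

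Interferon-induced antiviral effectors are genes switched on by type I interferon, whose products degrade viral RNA or block its translation. Of 35 measured, 13 were higher and none lower in KO cells (37.1%, against 8.34% of all genes higher), with a median difference of 0.69. For this list and the hypoxia, glycolysis, replication, mitosis, respiratory chain, folding, cholesterol and macrophage lists, limma's unadjusted p was also not under 0.05 for any member in the direction with 0 calls. Oas3, whose promoter is printed above, read 5.66, 4.86 and 4.70 in WT and 6.44, 6.50 and 6.21 in KO arrays (2.48-fold, limma adjusted p = 0.000645). Gbp3, a guanylate-binding protein, read 6.17, 4.62 and 3.99 against 6.46, 7.22 and 6.66 (3.61-fold), and Eif2ak2, the double-stranded RNA-activated kinase PKR, 7.87, 7.27 and 6.86 against 8.03, 8.43 and 7.96 (1.75-fold). In all 3 genes, named for their small p, the KO arrays lay above every WT array, with WT replicate 1 closest. Other members were not called: Ifit1, a binder of foreign RNA, differed by 1.22 ± 0.49 (adjusted p = 0.0968), Isg15, a ubiquitin-like modifier, by 1.00 ± 0.36, Usp18, its protease, by 1.28 ± 0.49, and Rsad2, viperin, by 0.70 ± 0.43. Without WT replicate 1 these 4 were called, at 1.91, 1.38, 1.97 and 1.35, and Gbp3 was 5.55-fold higher. Members of the Oas, Ifi200 and class I families resemble each other in sequence, and their probe sets may read more than 1 gene.

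The count depended on single arrays. It was 28 without WT replicate 1, 5 without WT replicate 2, 5 without WT replicate 3, and 8, 5 and 8 without KO replicates 1, 2 and 3, and a fit to the 6 day 4 arrays alone called 2. The mean of the centred members was 0.82, -0.36 and -0.78 in the WT arrays and 0.42, 1.14 and 0.55 in the KO arrays, so WT replicate 1 lay within the KO range. At day 0 the list was separated in every array, at -1.33, -1.29 and -1.30 in WT and 0.70, 0.74 and 0.67 in KO cells, and 25 members were higher and none lower. By the test of the difference the effect was smaller at day 4 than at day 0 for 7 members and larger for 1, Oas3 (1.81% and 2.15% of all genes), and for 16 and 2 without WT replicate 1 (5.31% and 4.34%). Ifit1 differed by 4.96 at day 0, and the difference of its effects was -3.74 (adjusted p = 0.012).

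Among 21 nucleic acid sensors and interferon signalling genes, 5 were higher and 1 lower at day 4, with a median of 0.13. These shares were 23.8% and 4.76%, against 8.34% and 12.4% of all genes. Ifi204, a DNA sensor, was 4.12-fold higher, Stat2 and Irf9, parts of the interferon-activated transcription complex, 2.26- and 1.58-fold, and Irf7, the factor that amplifies interferon production, 2.89-fold. Cgas, the cytosolic DNA sensor, read 4.70, 4.89 and 5.30 in WT and 4.31, 4.59 and 4.53 in KO arrays, 1.4-fold lower (adjusted p = 0.0245), and so moved against the other called members. Ifi204 and Irf7 were 7.32- and 4.74-fold higher without WT replicate 1. The count of higher members was 10 without WT replicate 1, 0 without WT replicate 2 or 3, and 3, 1 and 2 without KO replicates 1, 2 and 3. The call of Cgas was lost without WT replicate 3 or KO replicate 1.

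Of 14 genes for antigen presentation on class I molecules, 2 were higher and 3 lower (14.3% and 21.4%, against 8.34% and 12.4% of all genes). The class I heavy chains H2-K1 and H2-T23 were 2.08- and 2.32-fold higher, with WT replicate 1 (10.34 for H2-K1) inside the KO range of 10.06 to 10.54. Tapbpl, which edits the peptides on class I molecules, read 6.46, 6.16 and 6.09 in WT and 5.45, 5.62 and 5.19 in KO arrays (1.76-fold lower, adjusted p = 0.00058). Psmb10, an immunoproteasome subunit, and Erap1, a peptide-trimming protease, were 1.69- and 1.6-fold lower. The called heavy chains and peptide-processing genes thus differed in opposite directions. With WT replicate 1 left out, 8 members were higher and 3 lower, with H2-K1 and H2-T23 at 3.05- and 3.57-fold. Both calls of heavy chains were lost without any other single day 4 array, and those of Psmb10 and Erap1 without KO replicate 1 or 3.

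Of 32 secreted inflammatory factors, 2 were higher and 1 lower at day 4 with all arrays (6.25% and 3.12%). Both shares were under the 8.34% and 12.4% of all genes. Without WT replicate 1, 23 were higher and 1 lower (71.9% and 3.12%, against 10.8% and 15.9% of all genes). Ptgs2, the inducible cyclooxygenase, read 9.07, 7.51 and 7.50 in WT and 9.94, 9.73 and 9.80 in KO arrays (3.48-fold, adjusted p = 0.00155), and was called in each fit that left out 1 day 4 array. Il6 was 3.49-fold higher with WT replicate 1 (6.64) inside the KO range of 6.44 to 7.29, and its call was lost without WT replicate 2 or 3 or KO replicate 2, while without WT replicate 1 it was 6.29-fold higher. Ccl9, a chemokine of myeloid cells, read 7.99, 6.61 and 6.36 in WT and 5.48, 5.79 and 5.77 in KO arrays, 2.48-fold lower, and 1.75-fold without WT replicate 1. The chemokine Ccl2 differed by 1.18 ± 0.49 with all arrays (adjusted p = 0.11) and by 2.02 without WT replicate 1 (adjusted p = 2.04e-06), and Cxcl1 and Cxcl10 by 1.65 and 1.02 against 2.79 and 2.22. The list mean was 1.35 in WT replicate 1, above the KO arrays (0.27, 0.68 and 0.37), and -0.80 and -1.01 in WT replicates 2 and 3. The macrophage marker mean was also highest in WT replicate 1 (0.85, against 0.50 and 0.41) and lowest in the KO arrays (-0.56, -0.49 and -0.50), and its part in these results was not tested. The count of higher members was 1 without WT replicate 2 or 3 or KO replicate 2, and that of lower members 3 without WT replicate 3.

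**Figure D3:**
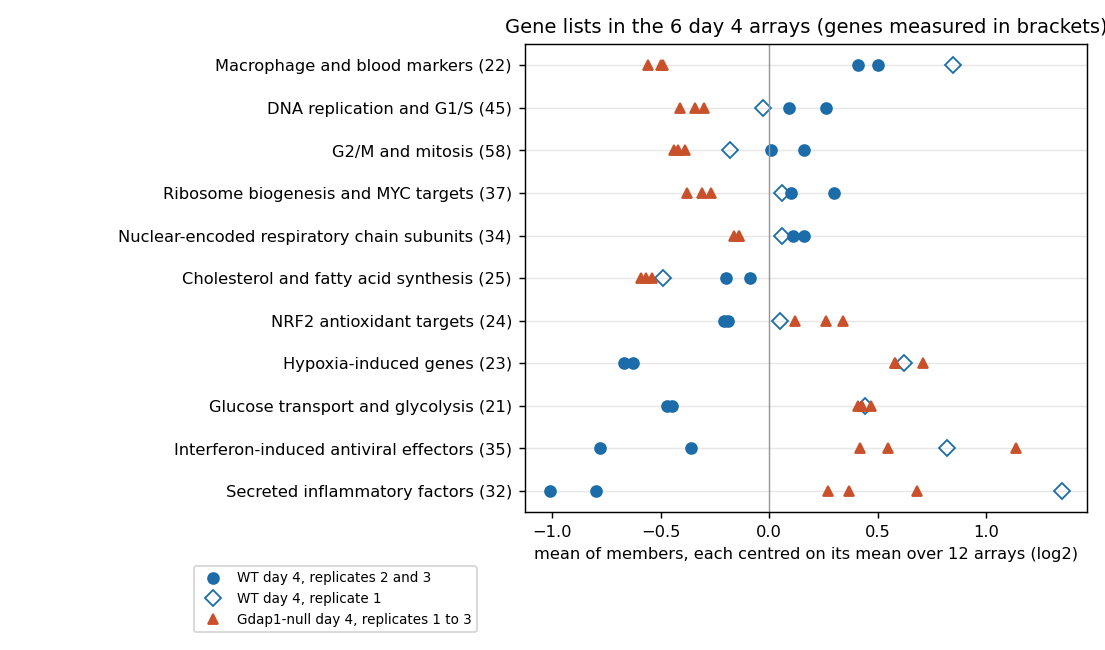
Mean of the members of 11 gene lists in each day 4 array, each member centred on its mean over all 12 arrays (horizontal axis, log2; number of genes measured in brackets); circles are WT replicates 2 and 3, open diamonds WT replicate 1 and triangles KO arrays. For the hypoxia, glycolysis and interferon lists the diamond lies among the triangles, for the inflammatory list beyond them, and for replication, ribosome and respiratory chain genes nearer to the circles.

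Genes induced by low oxygen are targets of the HIF transcription factors, which cells degrade when oxygen is plentiful. Of 23 measured, 13 were higher and none lower in KO cells (56.5%, against 8.34% of all genes higher), with a median of 0.67. Vegfa, the vascular growth factor, read 9.46, 8.28 and 8.27 in WT and 9.93, 9.88 and 9.71 in KO arrays (2.25-fold, limma adjusted p = 0.00473). P4ha1, whose promoter is printed above, read 10.05, 9.18 and 9.06 against 10.27, 10.35 and 10.11 (1.76-fold), and Plod2, a collagen lysyl hydroxylase, was 1.59-fold higher. WT replicate 1 lay close under the KO arrays in these genes and the other WT arrays lay clearly lower. Adm, the vasodilator peptide adrenomedullin, was 2.51-fold higher, Hif1a, the oxygen-regulated subunit, 1.49-fold, and Egln1, its main prolyl hydroxylase, 1.64-fold. Car9, a carbonic anhydrase often used as a hypoxia marker, differed by 0.33 ± 0.13 (adjusted p = 0.0836), and by 0.46 without WT replicate 1 (adjusted p = 0.0102).

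In the fit without WT replicate 1, 22 of the 23 were higher (95.7%, against 10.8% of all genes) and the median was 0.98. The list mean was 0.62 in WT replicate 1, -0.63 and -0.67 in the other WT arrays and 0.71, 0.58 and 0.58 in the KO arrays. The groups therefore overlapped, with WT replicate 1 within the KO range. Without WT replicate 2 or 3 the count was 4, without KO replicate 1 it was 7, and in a fit to the 6 day 4 arrays alone it was 1. Calls of Hif1a were lost without WT replicate 2 or 3 or KO replicate 2, and that of Egln1 without any 1 of the day 4 arrays other than WT replicate 1. At day 0 the list mean was -0.50, -0.41 and -0.45 in WT and 0.07, 0.05 and 0.04 in KO cells, and 2 members were called higher. No member passed limma's test of the difference between days with all arrays (6 had a positive and 1 a negative difference at an unadjusted p under 0.05), whereas without WT replicate 1, 16 members had a larger and 1 a smaller effect at day 4 (4.34% and 5.31% of all genes).

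Glucose transport and glycolysis genes followed the same pattern of arrays. Of 21, 8 were higher and none lower (38.1%, against 8.34% of all genes higher, median 0.45). Without WT replicate 1, 19 were higher (90.5%, against 10.8% of all genes, median 0.83). Slc2a3, a glucose transporter, read 6.64, 5.93 and 5.93 in WT and 7.31, 6.83 and 7.25 in KO arrays (1.95-fold, adjusted p = 0.00202). Slc2a1, the main glucose transporter of fibroblasts, read 10.76, 9.29 and 9.11 against 11.25, 10.96 and 11.06 (2.58-fold), and Pfkp, a phosphofructokinase, was 2.42-fold higher. Each of the 3 genes, named for their small p, was higher in every KO array than in any WT array. Aldoc, an aldolase, and Pdk1, which shuts pyruvate out of the mitochondrial cycle, were 1.98- and 1.77-fold higher. Hk2, a hexokinase, and Ldha, lactate dehydrogenase, were not called (0.66 ± 0.25 and 0.29 ± 0.15), but were without WT replicate 1 (1.08 and 0.54), where Pdk1 was 2.42-fold higher. The count was 3 without WT replicate 2 or 3, 4, 5 and 4 without KO replicates 1, 2 and 3, and 1 in the 6 arrays alone. The call of Pdk1 was lost without any 1 of the day 4 arrays other than WT replicate 1, and that of Aldoc without WT replicate 2 or 3. Slc2a3 differed by -0.55 at day 0 and 0.96 at day 4, and this difference between days was called (1.51, adjusted p = 0.00572). By that test 1 member was more positive and 1 more negative at day 4, and 15 and 1 without WT replicate 1.

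NRF2, encoded by Nfe2l2, is the transcription factor that switches on glutathione synthesis and detoxifying enzymes under oxidative stress. Of 24 targets and regulators, 10 were higher and 1 lower at day 4 (41.7% and 4.17%, against 8.34% and 12.4% of all genes). The median was 0.35, and the counts were 13 and 1 without WT replicate 1. Nqo1, given above, was the largest of the named rises. Gclm, the regulatory subunit of the rate-limiting enzyme of glutathione synthesis, read 8.86, 8.77 and 8.74 in WT and 9.49, 9.27 and 9.39 in KO arrays (1.51-fold, limma adjusted p = 0.000315). Its catalytic partner Gclc differed by 0.06 ± 0.11 and was not called. Abcc1, an exporter of glutathione conjugates, was 1.8-fold higher, Srxn1, sulfiredoxin, 1.42-fold, and Txnrd1, thioredoxin reductase, 1.35-fold. Gsta4, a glutathione transferase, was 1.78-fold lower, and Hmox1, heme oxygenase, was not called (0.40 ± 0.20) except without WT replicate 1 (0.71, adjusted p = 0.0011). The list mean was 0.05, -0.19 and -0.21 in WT and 0.34, 0.12 and 0.26 in KO arrays, which did not overlap. A fit to the 6 day 4 arrays alone called 6 higher. At day 0, 1 member was higher and 1 lower. The difference between days was positive and called for 4 members and negative for none (10 and 1 at an unadjusted p under 0.05), and for 8 without WT replicate 1. They include Nqo1 (1.83, adjusted p = 0.00103) and Gclm (0.53, adjusted p = 0.02). For Gsta4, which was already lower at day 0 (-1.62), the positive difference (0.79, adjusted p = 0.0167) means that the gap was smaller at day 4.

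Genes of DNA replication were lower in KO cells at day 4. These include the MCM helicase, the origin proteins that load it, and the polymerases and clamp that follow, most of them under the control of E2F factors. Of 45, 32 were lower and none higher (71.1%, against 12.4% of all genes lower), with a median of -0.51. Mcm5, whose promoter is printed above, read 9.03, 9.33 and 9.71 in WT and 8.07, 8.13 and 8.27 in KO arrays (2.3-fold lower, limma adjusted p = 0.000168). Mcm2 read 8.34, 8.78 and 8.86 against 7.82, 7.56 and 7.89 (1.87-fold lower), Uhrf1, which keeps DNA methylation through replication, was 1.8-fold lower, and Cdc45, a helicase cofactor, 1.64-fold. Rpa2, a subunit of the single-strand binding protein, read 6.87, 6.83 and 7.01 against 6.20, 6.24 and 6.23. In each of these genes every KO array lay below every WT array, WT replicate 1 included. Most of these members were named for their small p, and 31.6% of all genes had no overlap in either direction.

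Not every cell cycle regulator moved with them. Ccnd1, cyclin D1, read 10.58, 10.72 and 10.69 in WT and 10.66, 10.64 and 10.76 in KO arrays (0.02 ± 0.08), and neither Ccne1, cyclin E1 (-0.08 ± 0.09), nor E2f1 (-0.07 ± 0.09) was called. The falls of Mcm6 and of Cdc6, a loader of the helicase, were 1.26- and 1.45-fold, and their calls were lost without WT replicate 3 or KO replicate 1 or 2. The list mean was -0.03, 0.09 and 0.26 in WT and -0.34, -0.41 and -0.30 in KO arrays. When WT replicate 1 was left out 35 members were lower, with a median of -0.55. At day 0 limma called none (14 were lower and 0 higher at an unadjusted p under 0.05), the median was -0.15, and the effect at day 4 was more negative for 8 members by the test of the difference (12 without WT replicate 1), Mcm5 (-0.89, adjusted p = 0.0273), Uhrf1 (-0.68), Rpa2 (-0.57) and Cdc45 (-0.53) among them.

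Of 58 genes of mitosis and the approach to it, 38 were lower and none higher (65.5%, against 12.4% of all genes lower, median -0.44). Cdc20, an activator of the anaphase-promoting complex, read 9.18, 9.28 and 9.50 in WT and 8.51, 8.27 and 8.36 in KO arrays (1.92-fold lower, adjusted p = 7.03e-05). Plk1 and Aurka, kinases of spindle assembly, were 1.73- and 1.53-fold lower, Cdc25c, the phosphatase that opens mitosis, 1.7-fold, and Mki67, the proliferation antigen Ki-67, 1.44-fold. Cdk1, the kinase that drives mitosis, did not differ past the threshold (-0.03 ± 0.09), nor did Top2a, topoisomerase II (-0.23 ± 0.08, adjusted p = 0.0675, and -0.31 without WT replicate 1, adjusted p = 0.0136). The mean of the list was -0.18, 0.01 and 0.16 in WT and -0.42, -0.44 and -0.39 in KO arrays, with no overlap. With WT replicate 1 left out, 48 were lower, and in the 6 day 4 arrays alone 19. At day 0, 3 were lower, and the effect was more negative at day 4 for 4 members (19 without WT replicate 1), among them Cdc20 (-0.56, adjusted p = 0.0361) and Cdc25c (-0.55, adjusted p = 0.0366).

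Ribosome biogenesis and other genes that MYC is known to activate were also lower, although Myc itself was 1.28-fold higher in the same arrays. Of 37, 27 were lower and 1 higher (73% and 2.7%, against 12.4% and 8.34% of all genes, median -0.47). Cad, which starts pyrimidine synthesis, read 8.06, 8.33 and 8.43 in WT and 7.29, 7.29 and 7.40 in KO arrays (1.93-fold lower, limma adjusted p = 6.45e-05). Nme1, a nucleoside diphosphate kinase, was 1.79-fold lower, Bop1, a processing factor of the large ribosomal subunit, 1.74-fold, Mybbp1a, a nucleolar protein, 1.67-fold, and Ncl, nucleolin, 1.27-fold. Npm1, nucleophosmin, was the member that was higher, at 10.99, 10.75 and 10.96 against 10.71, 10.50 and 10.70 (1.2-fold, adjusted p = 0.0493), and its call was lost under quantile normalization, without WT replicate 2 or 3 and without KO replicate 1 or 3. The call of Ncl was lost without WT replicate 3. Odc1, the rate-limiting enzyme of polyamine synthesis, was not called with all arrays (-0.23 ± 0.11) and was without WT replicate 1 (-0.35, adjusted p = 0.0175). The counts were 29 lower and 2 higher without WT replicate 1. At day 0 limma called none (5 were lower and 1 higher at an unadjusted p under 0.05), and by the test of the difference 9 members were more negative at day 4 (18, and 1 more positive, without WT replicate 1), with Cad at -0.90 (adjusted p = 0.00393), Nme1 at -0.78, Bop1 at -0.71 and Mybbp1a at -0.52.

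Genes of mitochondrial fission, fusion and transport include the machinery in which Gdap1 is placed. Of 26, 2 were higher and 7 lower (7.69% and 26.9%, against 8.34% and 12.4% of all genes), with a median of -0.15. The share of higher members was thus near that of all genes. Dnm1l, the dynamin that divides mitochondria, read 9.46, 9.54 and 9.66 in WT and 9.54, 9.55 and 9.61 in KO arrays (0.01 ± 0.07), and Opa1, the fusion dynamin of the inner membrane, differed by 0.01 ± 0.08. The groups overlapped in both. Of the outer membrane proteins, Fis1, a fission factor, was 1.25-fold lower, Mief2, a recruiter of Dnm1l, read 5.36, 5.44 and 5.18 against 4.58, 4.84 and 4.70 (1.54-fold lower, limma adjusted p = 0.00197), and Mfn1, a mitofusin, was 1.21-fold higher, while Mfn2 was not called (-0.17 ± 0.11). Rhot2, which ties mitochondria to transport along microtubules, read 7.70, 7.68 and 7.73 in WT and 7.10, 7.15 and 7.11 in KO arrays (1.5-fold lower, adjusted p = 0.000203). Its KO and WT arrays were each within 0.05 log2 units of each other. Immt, a core protein of cristae junctions, was 1.27-fold lower, and Oma1, the inner membrane protease that cuts Opa1, 1.3-fold higher.

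At day 0 limma called no member of that list (5 were lower and 1 higher at an unadjusted p under 0.05), and without WT replicate 1 the counts were again 2 and 7. Without WT replicate 3 or KO replicate 1 the lower count was 3 and 4, without KO replicate 3 the higher count was 1, and in the 6 day 4 arrays alone the counts were 0 and 2. The call of Fis1 was lost without WT replicate 2 or 3 or KO replicate 1 or 3, and that of Mfn1 without KO replicate 3. The genotype effects differed between days for Mfn1 (0.42, adjusted p = 0.0325) and Rhot2 (-0.42, adjusted p = 0.0355).

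Nuclear-encoded subunits of the respiratory chain were lower by small steps. Of 34, 18 were lower and none higher (52.9%, against 12.4% of all genes lower, median -0.23), and 17 were lower without WT replicate 1. Ndufa2 and Ndufs8, subunits of complex I, read 8.27, 8.47 and 8.36 against 7.52, 7.72 and 7.54 (1.71-fold lower, limma adjusted p = 0.000111) and 9.57, 9.88 and 9.81 against 8.99, 9.03 and 9.01 (1.67-fold lower). Uqcrq and Cyc1, subunits of complex III, were 1.55- and 1.5-fold lower. The KO and WT arrays of these 4 genes, named for their small p, did not overlap, as was so for 31.6% of all genes. The list mean was 0.06, 0.11 and 0.16 in WT and -0.14, -0.16 and -0.14 in KO arrays, against 0.08, 0.02 and 0.04 and -0.04, -0.00 and 0.01 at day 0, when 1 member was lower. By the test of the difference 3 members had a more negative effect at day 4 (5 without WT replicate 1), Ndufs8 (-0.48), Uqcrq (-0.57) and Cyc1 (-0.44). In the 6 day 4 arrays alone 9 members were lower.

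Of 20 genes of store-operated and mitochondrial calcium entry, 2 were higher and 3 lower (10% and 15%), near the 8.34% and 12.4% of all genes, with a median of -0.02. Trpc1, a cation channel of the plasma membrane, read 6.65, 6.29 and 6.55 in WT and 7.54, 7.15 and 7.36 in KO arrays (1.81-fold, limma adjusted p = 0.000346), and Atp2b4, a plasma membrane calcium pump, was 1.85-fold higher. Letm1, an ion exchanger of the inner membrane, and Smdt1, a regulator of the mitochondrial calcium uniporter, were 1.45- and 1.46-fold lower, and Orai3, a calcium channel, 1.27-fold. The uniporter Mcu (-0.09 ± 0.10), the sensor Stim1 (-0.01 ± 0.10) and the channel Orai1 (-0.09 ± 0.09) were not called. The difference between days was called for Trpc1 (0.93, adjusted p = 0.0082) and Letm1 (-0.52, adjusted p = 0.0204). Without WT replicate 1 the list had 4 higher and 3 lower members.

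Of 22 tubulins, stathmins and microtubule proteins, 2 were higher and 8 lower (9.09% and 36.4%, against 8.34% and 12.4% of all genes). The list median was -0.22. The tubulins Tuba1a and Tubb4b were 1.51- and 1.53-fold lower. The microtubule-destabilising stathmins moved apart: Stmn1, which dividing cells express, read 6.84, 6.97 and 7.35 in WT and 6.37, 6.44 and 6.28 in KO arrays (1.61-fold lower), and Stmn2, a stathmin of neurons, 8.84, 8.97 and 9.24 against 10.07, 9.72 and 9.96 (1.86-fold higher, limma adjusted p = 0.00285). The lower count was 10 without WT replicate 1 and 5 without WT replicate 2 or KO replicate 1, and the higher count was 1 without WT replicate 3. Tuba1a was called for the difference between days (-0.67, adjusted p = 0.0281).

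Genes of the endoplasmic reticulum's folding and degradation machinery numbered 23, of which 7 were lower and none higher (30.4%, against 12.4% of all genes lower). The median was -0.12, and 7 were lower without WT replicate 1. Herpud1, a degradation factor, read 8.91, 8.93 and 8.78 in WT and 8.13, 8.26 and 8.16 in KO arrays (1.61-fold lower, limma adjusted p = 9.93e-05). Sec61b, of the translocation channel, Sdf2l1 and Hyou1, of the folding machinery, were 1.65-, 1.55- and 1.48-fold lower, and Hspa5, the chaperone BiP, 1.21-fold. Without WT replicate 2 or KO replicate 1 or 3 the count was 4 and the call of Hspa5 was lost, as it was under quantile normalization, and that of Sec61b was lost when probe sets of a gene were averaged. Of 33 ATF4 targets, which supply amino acids and carry them into the cell, 6 were higher and 10 lower (18.2% and 30.3%). The shares of all genes were 8.34% and 12.4%, and the list counts without WT replicate 1 were 7 and 12. Psat1, of serine synthesis, Slc7a1 and Slc1a5, amino acid transporters, and Wars, a tRNA synthetase, were 1.35-, 1.49-, 1.42- and 1.44-fold lower, while Asns, asparagine synthetase, was 1.15-fold higher and Ddit3, the stress factor CHOP, was not called (-0.09 ± 0.11). The higher count was 1 without WT replicate 2, 0 without WT replicate 3, and 1, 3 and 3 without KO replicates 1, 2 and 3, and each of these omissions ended the call of Asns.

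Cholesterol and fatty acid synthesis genes are run by the SREBP factors. Of 25, 12 were lower and none higher (48%, against 12.4% of all genes lower, median -0.26). Without WT replicate 1, 17 were lower (median -0.44). Fasn, fatty acid synthase, read 9.48, 9.93 and 9.92 in WT and 8.84, 8.76 and 8.90 in KO arrays (1.93-fold lower, limma adjusted p = 0.000194). Elovl6, an elongase, and Nsdhl and Mvk, of the cholesterol pathway, were 1.58-, 1.56- and 1.4-fold lower. Hmgcs1, which commits carbon to that pathway, and Sqle, its monooxygenase, were not called (-0.17 ± 0.11 and -0.08 ± 0.14), and without WT replicate 1 Hmgcs1 was (-0.34, adjusted p = 0.00425). Srebf2, the regulator of the cholesterol branch, was 1.2-fold lower, but its call was lost without any other day 4 array than WT replicate 1, and under quantile normalization or median centring. The mean of the list was -0.49, -0.09 and -0.20 in WT and -0.57, -0.59 and -0.54 in KO arrays, with WT replicate 1 next to KO. In the 6 day 4 arrays alone 6 were lower. Fasn was called for the difference between days (-0.78, adjusted p = 0.0192).

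**Figure D4:**
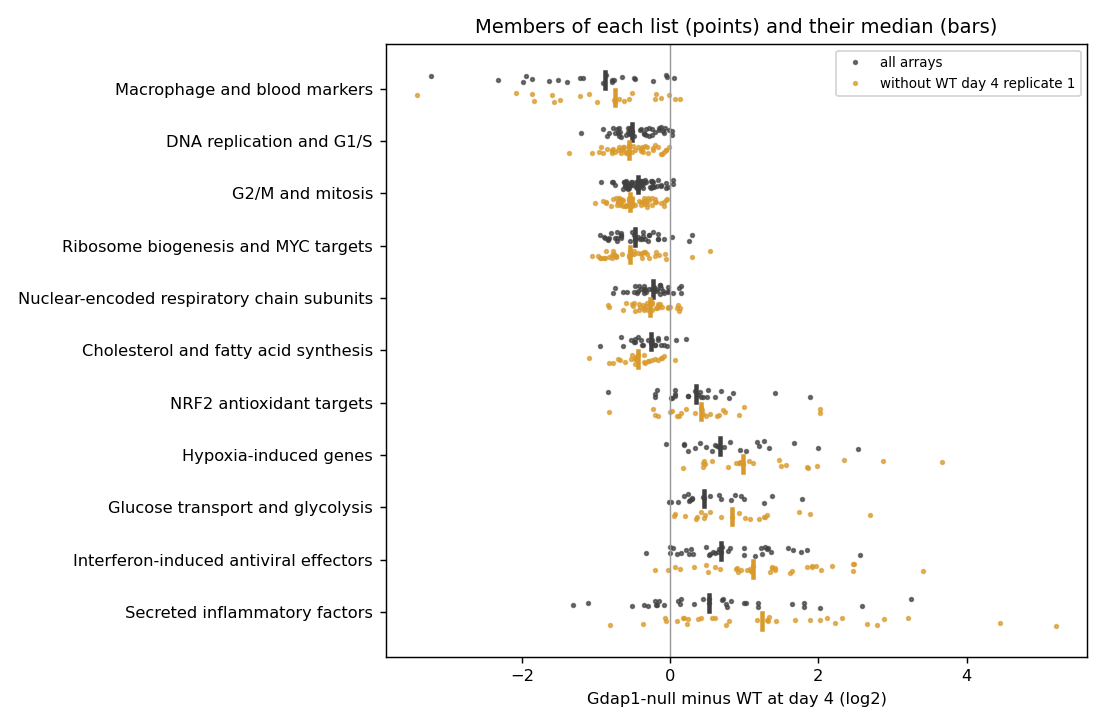
Difference at day 4 (horizontal axis, KO minus WT, log2) of each measured member of 11 lists (points) and the median of each list (bars), with all arrays (dark) and without WT day 4 replicate 1 (orange). The medians of the hypoxia, glycolysis, interferon and inflammatory lists move away from 0 without that array (to 0.98, 0.83, 1.12 and 1.23), and those of the replication and respiratory chain lists move little.

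Called growth control genes went in both directions, with a share above that of all genes for the higher ones only. Of 31 CDK inhibitors and p53 targets, 9 were higher and 3 lower (29% and 9.68%, against 8.34% and 12.4% of all genes). Cdkn1a, the inhibitor p21, read 11.45, 11.43 and 11.42 in WT and 11.48, 11.41 and 11.35 in KO arrays (-0.02 ± 0.07), with overlapping groups. Cdkn2a, the locus of p16 and p19, and Cdkn1b, p27, were 1.41- and 1.24-fold higher, Cdkn1c, p57, and Sesn2, a stress-induced inhibitor of growth signalling, 1.67- and 1.5-fold lower. Polk, a translesion polymerase, was 1.35-fold higher. Perp, a p53 target in junctions, read 7.20, 6.76 and 6.88 against 7.81, 7.30 and 7.88 (1.64-fold higher), and was lower at day 0 (-0.99, difference between days 1.70, adjusted p = 0.00132). The counts were 7 and 6 without WT replicate 1. The higher count was 3 and 4 without KO replicates 1 and 2, either of which ended the call of Cdkn1b.

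Of 29 immediate early genes and feedback regulators of ERK, 11 were higher and 1 lower (37.9% and 3.45%). The shares of all genes were 8.34% and 12.4%, and the list median was 0.20. Dusp6 and Dusp5, phosphatases that ERK induces and that shut it off, read 7.52, 7.28 and 7.20 against 8.10, 8.49 and 8.23 (1.92-fold, limma adjusted p = 0.000474) and 5.75, 5.83 and 5.84 against 6.18, 6.38 and 6.33 (1.4-fold). Etv5, an ERK-responsive factor, and Nr4a1, an immediate early receptor, were 1.64- and 1.39-fold higher, whereas Fos (0.15 ± 0.13) and Egr1 (-0.12 ± 0.14) were not called. Egr1 was lower without WT replicate 1 (-0.33, adjusted p = 0.00722), where the counts were 13 and 2. The effect was larger at day 4 for Dusp5 (0.73, adjusted p = 0.00718) and Etv5 (0.79, adjusted p = 0.0158).

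Among growth factors and their receptors, 9 of 29 were higher and 5 lower (31% and 17.2%, against 8.34% and 12.4% of all genes). Met, the receptor of hepatocyte growth factor, read 6.91, 6.68 and 6.77 in WT and 8.11, 7.92 and 8.14 in KO arrays (2.4-fold, limma adjusted p = 7.07e-06), and Hbegf, a ligand of the EGF receptor, 5.86, 6.29 and 6.01 against 6.96, 6.92 and 6.93 (1.84-fold). Igf2, insulin-like growth factor 2, and Igfbp5 and Igfbp6, binding proteins of these factors, were 1.51-, 1.89- and 1.6-fold lower, and Igf1 was not called (-0.49 ± 0.24) except without WT replicate 1 (-0.85, adjusted p = 0.00168). The higher count was 10 without WT replicate 1, 4 without WT replicate 3 and 5 without KO replicate 3, and the lower count 8 without WT replicate 1 and 3 without WT replicate 3. Hbegf was lower at day 0 (-0.41), and its effects differed between days (1.29, adjusted p = 0.000731), as did those of Igfbp5 (-1.05, adjusted p = 0.0214).

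YAP and TAZ are coactivators that respond to cell shape and stiffness. Of 23 of their targets and partners, 9 were higher and 3 lower (39.1% and 13%, median 0.09), and 7 and 3 without WT replicate 1. The shares of all genes were 8.34% and 12.4%, so the lower share was near that of all genes. Ccn1, a matricellular protein used as a readout of YAP, read 9.45, 9.74 and 9.45 in WT and 10.56, 10.62 and 10.47 in KO arrays (2.01-fold, limma adjusted p = 4.06e-05). Amotl2, a feedback inhibitor, and Ankrd1 were 1.59- and 1.78-fold higher, and Ccn2, 1.67-fold, lost its call without WT replicate 1 (0.46, against 0.74 with it) or 3 or KO replicate 2. Nt5e, the ectoenzyme CD73, and Tgfb2, a TGF-beta ligand, were 1.9- and 1.75-fold lower. The difference between days was positive for 7 members, with Ccn1 at 1.12 (adjusted p = 0.00117), Ankrd1 at 1.18, Ccn2 at 1.20 and Amotl2 at 0.57, and negative for 2, with Nt5e at -1.58 (adjusted p = 0.00127).

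Actin and smooth muscle genes showed no common direction at day 4. Of 25, 3 were higher and 2 lower (12% and 8%, against 8.34% and 12.4% of all genes). Tpm2, a tropomyosin, Myh9, non-muscle myosin, and Lmod1, leiomodin, were 1.73-, 1.3- and 1.53-fold higher, and Flna, filamin, and Srf, the factor that drives the set, 1.32- and 1.23-fold lower. Acta2, smooth muscle actin, and Cnn1, calponin, were not called (0.06 ± 0.14 and 0.34 ± 0.43). Cnn1 read 5.98, 8.08 and 7.05 in WT and 6.73, 8.21 and 7.20 in KO arrays, so arrays of 1 genotype were farther apart than the genotypes, and without WT replicate 1 its difference was -0.18. The list median was 0.17 with all arrays and -0.06 without WT replicate 1. The lower count was 6 without WT replicate 1, 0 without WT replicate 2 or 3 or KO replicate 1, and 1 without KO replicate 3, and the higher count 7 without WT replicate 2. The call of Lmod1 was lost without WT replicate 3 or KO replicate 2, that of Srf also without KO replicate 2 and under quantile normalization, and that of Flna also without KO replicate 3. The effect was more positive at day 4 than at day 0 for 5 members (7 without WT replicate 1), Tpm2 (1.29, adjusted p = 0.0026) and Myh9 (0.62, adjusted p = 0.0188) among them, and 5 members were lower at day 0.

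The main structural genes of fibroblasts overlapped between the genotypes. Vim, vimentin, read 12.73 to 12.84 in WT and 12.81 to 12.85 in KO arrays, Col1a1, type I collagen, 11.16 to 11.54 and 11.14 to 11.44, and neither was called. Of 36 matrix and identity genes, 7 were higher and 7 lower (19.4% each, against 8.34% and 12.4% of all genes). Tnc, tenascin C, read 10.19, 10.33 and 9.56 in WT and 10.97, 11.55 and 11.03 in KO arrays (2.23-fold, limma adjusted p = 0.000955), and Thy1, a fibroblast surface antigen, and Cd44, the hyaluronan receptor, were 1.58- and 1.38-fold higher. Pdgfra, the growth factor receptor that marks fibroblasts, read 10.16, 9.78 and 9.50 against 10.11, 10.73 and 10.29 (1.48-fold higher, a call lost without WT replicate 2 or 3 or KO replicate 2 or 3 and when all probe sets were tested), and the mesenchymal factor Prrx1 was not called (0.18 ± 0.06). Elastin, above, was the largest of the named falls, and Col3a1, type III collagen, was 1.39-fold lower, a call lost without WT replicate 2 or KO replicate 1 or 3. Without WT replicate 3 or KO replicate 2 the higher count was 4, and without WT replicate 2 or KO replicate 1 or 3 the lower count was 2. Both counts were again 7 without WT replicate 1.

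Of 23 TGF-beta and mesenchymal genes, 6 were higher and 3 lower (26.1% and 13%, against 8.34% and 12.4% of all genes). Smad7, the feedback inhibitor of the pathway, and Snai1, a repressor of epithelial genes, read 6.08, 5.93 and 5.71 against 6.42, 6.80 and 6.40 (1.55-fold) and 6.28, 6.45 and 6.03 against 6.77, 7.18 and 6.73 (1.56-fold). Ltbp1, which stores latent TGF-beta in the matrix, was 1.37-fold higher. All KO arrays were above all WT arrays in the 3 genes, but these were named for their small p. Of all genes, 31.6% had no overlap in either direction. The ligand Tgfb2 was lower. Without WT replicate 1, 7 were higher and 7 lower. Of 33 BMP and Wnt genes, 5 were higher and 2 lower (15.2% and 6.06%, against 8.34% and 12.4% of all genes). Without WT replicate 1 the counts were 6 and 3. Lef1, a Wnt effector, and Dkk3, of the Dickkopf family, were 1.84- and 2.01-fold higher, beside Grem1 above, and Id2, a BMP target, was 1.6-fold lower (adjusted p = 0.00394). The lower count was 1 without WT replicate 2 or KO replicate 1 or 3. For Dkk3 the difference between days was called (1.05, adjusted p = 0.0105).

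Early reprogramming genes differed little. Of 36 pluripotency and early reprogramming genes, 1 was higher and 3 lower at day 4 (2.78% and 8.33%). Both shares were under the 8.34% and 12.4% of all genes, and the counts without WT replicate 1 were 5 and 3. Nanog, of the pluripotency core, read 4.52, 4.62 and 4.92 in WT and 4.81, 4.75 and 4.92 in KO arrays (0.14 ± 0.11), and Esrrb, a later factor, differed by 0.23 ± 0.08 (adjusted p = 0.0654). Both lay low on the scale in either genotype. Trim28, a corepressor that silences retroelements, read 9.47, 9.63 and 9.70 against 8.79, 8.92 and 8.81 (1.69-fold lower, limma adjusted p = 0.000104). At day 0 it differed by 0.05 ± 0.08, and the difference between days was called (-0.81, adjusted p = 0.00316). The DNA methyltransferase Dnmt3b and the methylcytosine dioxygenase Tet1 were 1.43- and 1.36-fold lower. Tbx3, 1.23-fold higher, lost its call without WT replicate 3 or KO replicate 2, and its effect was smaller than at day 0 (difference -0.61, adjusted p = 0.0127).

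Epithelial genes are known to rise in fibroblasts early in reprogramming. Of 33, 3 were higher and 3 lower (9.09% each), shares near or under the 8.34% and 12.4% of all genes. Cdh1, E-cadherin, read 6.10, 6.18 and 7.06 in WT and 5.72, 5.57 and 5.68 in KO arrays (1.72-fold lower, limma adjusted p = 0.0119), and the keratins Krt8 and Krt7 were 1.76- and 1.73-fold lower. Epcam, an epithelial adhesion molecule, was not called (0.17 ± 0.14). Pkp2, a plakophilin of desmosomes, read 5.72, 4.98 and 4.89 against 6.86, 6.51 and 6.68 (2.8-fold higher, adjusted p = 0.000155), and Ocln, occludin, was 1.35-fold higher. The higher count was 5 without WT replicate 1 or KO replicate 2, and the lower count 4 without WT replicate 1. For Pkp2 the difference between days was called (1.52, adjusted p = 0.00568).

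Of 35 HOX genes, which record the position of a fibroblast along the body, 4 were higher and 3 lower (11.4% and 8.57%), near the 8.34% and 12.4% of all genes. Hoxb8 and Hoxb4 were 1.48- and 1.34-fold higher, and Hoxd3 and Hoxd9 1.69- and 1.33-fold lower. The counts were 2 and 5 without WT replicate 1, which ended the call of Hoxb4. The higher count was 2 without WT replicate 3 and 1 without KO replicate 2, and the lower count 1 without WT replicate 2 or 3 or KO replicate 3, each of which ended the call of Hoxd9, as KO replicate 2 did for Hoxb4. Of 20 peroxisome genes, 5 were higher and 3 lower (25% and 15%, against 8.34% and 12.4% of all genes). Without WT replicate 1 the counts were 4 and 3 (20% and 15%, against 10.8% and 15.9%). The share of lower members was thus near that of all genes. Pex7 and Phyh, of import and of phytanic acid breakdown, were 1.42- and 1.33-fold higher, and Pex10, an import factor, was 1.28-fold lower. Pex26, which anchors the import machinery, was 1.19-fold higher, a call lost without WT replicate 2 or 3 or KO replicate 1 or 3. The peroxisome counts fell to 1 or 2 higher without WT replicate 2 or 3 or KO replicate 1 or 3, and to 0 or 1 lower without WT replicate 2 or 3 or KO replicate 2, and the call of Phyh was lost without WT replicate 2 or 3 or KO replicate 2 and that of Pex10 without WT replicate 3.

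Markers of other cell types moved with the genotype. Of 22 macrophage and blood markers, 15 were lower in KO cells and none higher (68.2%), with and without WT replicate 1. The share of all genes that were lower was 12.4% with and 15.9% without it. The list median was -0.89 with and -0.75 without WT replicate 1. Cd68, a lysosomal protein of macrophages, read 8.90, 8.82 and 8.79 in WT and 7.31, 7.02 and 7.28 in KO arrays (3.1-fold lower, limma adjusted p = 8.33e-07). Csf1r, the receptor that macrophages need to live, read 6.42, 6.15 and 6.17 against 5.22, 5.03 and 4.96 (2.26-fold lower), and Ptprc, the leukocyte antigen CD45, 4.58, 4.19 and 4.32 against 3.47, 3.58 and 3.42 (1.83-fold lower). All 3 were separated in every array, as were 31.6% of all genes in either direction. The range of the marker mean was 0.41 to 0.85 in WT and -0.56 to -0.49 in KO arrays. At day 0, 17 were lower, at 0.51 to 0.58 in WT and -0.65 to -0.58 in KO cells.

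Other marker lists shifted less. Of 19 keratinocyte and squamous markers, 7 were lower and none higher (36.8%, against 12.4% of all genes lower, median -0.14). Krt14, a basal keratin, read 6.70, 7.08 and 6.72 in WT and 5.44, 5.67 and 5.59 in KO arrays (2.4-fold lower, limma adjusted p = 0.000385). Slurp1, a secreted protein of keratinocytes, read 8.12, 7.89 and 8.35 against 7.17, 6.64 and 7.32 (2.11-fold lower). Dsg3, a desmosomal cadherin, was 1.26-fold lower. Without WT replicate 3 the count was 3, and the call of Krt16, a stress keratin 1.39-fold lower, was lost without WT replicate 3 or KO replicate 2. The differences between days were called for Slurp1 (-1.08, adjusted p = 0.0323) and Krt16 (-0.75, adjusted p = 0.0339). Of 18 endothelial markers, Flt1, a VEGF receptor 1.58-fold higher, was called (5.56%, against 8.34% of all genes higher). Its call was lost without WT replicate 2 or 3 or KO replicate 2, while without WT replicate 1 the list had 3 higher and 1 lower. Pecam1, the defining endothelial antigen, differed by 0.21 ± 0.09 with all arrays (adjusted p = 0.12) and by 0.32 without WT replicate 1 (adjusted p = 0.00733). Of 23 skeletal muscle markers limma called 0, and 3 were higher at an unadjusted p under 0.05. Pax3, a regulator of muscle precursors, differed by 0.25 ± 0.10 and was called without WT replicate 1 (0.32, adjusted p = 0.0369), and Tnnc1, a troponin, differed by 0.19 ± 0.09. Without WT replicate 3, 1 member was called higher. Of the keratinocyte markers, 2 were higher at an unadjusted p under 0.05, and 1 was called higher without WT replicate 1 or without KO replicate 3.

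Of 21 neural and Schwann cell markers 2 were higher (9.52%, near the 8.34% of all genes), and 3 without WT replicate 1. The 2 were Gap43, a growth cone protein (1.45-fold), and Erbb3, the neuregulin receptor of Schwann cells (1.47-fold). The call of Erbb3 was lost without WT replicate 2 or 3 or KO replicate 1 or 3. Erbb3 was called for the difference between days (1.04, adjusted p = 0.0198). Of 16 adipocyte markers 1 was higher and 3 lower (6.25% and 18.8%, against 8.34% and 12.4% of all genes). Fabp4, the fatty acid carrier of adipocytes and macrophages, read 7.55, 5.96 and 5.83 in WT and 8.30 ± 0.26 (SD, n = 3) in KO arrays. It was 3.61-fold higher (limma adjusted p = 0.00221), with a difference between days of 1.87 (adjusted p = 0.0462). Cebpa, an adipocyte regulator, was 1.55-fold lower, a call lost without WT replicate 2 or 3 or KO replicate 1 or 3. Adipoq, the hormone adiponectin, was 1.23-fold lower, and its call was lost under median centring, with all probe sets, with a trended robust prior and without any other day 4 array than WT replicate 1. The higher count was 2 without WT replicate 1 or KO replicate 2, and the lower count 1 without WT replicate 3 or KO replicate 1 or 3. Of 20 bone, cartilage and tendon markers 2 were higher and 4 lower (10% and 20%, against 8.34% and 12.4% of all genes). Among them were Sox9, the cartilage regulator (1.58-fold lower), and Mkx, a tendon regulator (1.51-fold higher). Sox5, a partner of Sox9, was 1.28-fold higher, and Tnmd, a tendon protein, 2.31-fold lower, a call lost without WT replicate 2 or KO replicate 1 or 3. Without WT replicate 1, 3 were higher and 5 lower, and without WT replicate 3 or KO replicate 1 the lower count was 2.

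Markers of sex differed as well. Xist, the RNA of the inactive X chromosome, read 10.46, 10.49 and 10.63 in WT and 11.12, 10.80 and 11.03 in KO arrays (1.37-fold higher, limma adjusted p = 0.00449). The Y-linked genes Kdm5d and Uty read 6.70 to 7.08 against 6.38, 6.41 and 6.31 (1.48-fold lower) and 7.25, 7.24 and 7.44 against 6.80, 7.09 and 6.88 (1.3-fold lower). Both kinds of marker were present in every array, and all KO arrays lay above the WT arrays for Xist and below them for Kdm5d and Uty. Eif2s3y, also Y-linked and the last of the 4 measured sex markers, was not called at day 4. At day 0 Xist differed by 0.42 and Uty by -0.34, and both were called. Kdm5d differed by -0.28 at day 0 and was not called (limma adjusted p = 0.159). The part of the macrophage markers and of the sex markers in the other differences was not tested.

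Set beside day 0, which shares no array with day 4, 259 genes were higher in KO cells on both days, which is 14% of those higher at day 4 and 47.2% of those higher at day 0. The 287 genes lower on both days were 10.5% and 41.4% of the lower genes, and 46 genes were called in opposite directions. The effect itself differed between days for 877 genes (3.95%), 476 with a more positive and 401 with a more negative value at day 4, and without WT replicate 1 for 2140 genes (9.65%), 962 more positive and 1178 more negative, so that the larger share changed sides. For 3938 of the 4596 genes called at day 4, the difference between days was not called. The number of genes whose effect differed between days was 543 without WT replicate 3, 538 and 576 without KO replicates 1 and 3 of day 4, and 395 to 486 without any 1 of the day 0 arrays. The day 0 count itself, 1242 genes, was 769 to 826 without any 1 of the day 0 arrays and 1936 without WT day 4 replicate 1, since all arrays share 1 estimate of the spread.

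Single genes show the range of this comparison. Car3 differed by -3.42 on both days, and Prg4 by 1.87 at day 0 and 2.36 at day 4, with no called difference between days. Pla2g7 and Elobl differed by 0.15 and 0.44 at day 0 (neither called) and by 1.96 and 2.46 at day 4, and the difference between days was called (1.81 and 2.02, limma adjusted p = 0.000303 and 0.000248). Scpep1, higher by 0.70 at day 0, and Adssl1, by 0.95, gained 1.24 and 1.04 (adjusted p = 0.000303 and 0.0133). Among the falls, Reg1, Slitrk6 and Efhd1 differed by 0.02, 0.53 and -0.12 at day 0, none called, and the differences between days were -2.04 (adjusted p = 0.00132), -2.52 (adjusted p = 0.00336) and -1.81 (adjusted p = 0.0173). Eln differed by -3.22 at day 0 and by -1.90 at day 4, and the difference of 1.32 was not called (adjusted p = 0.133).

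**Figure D5:**
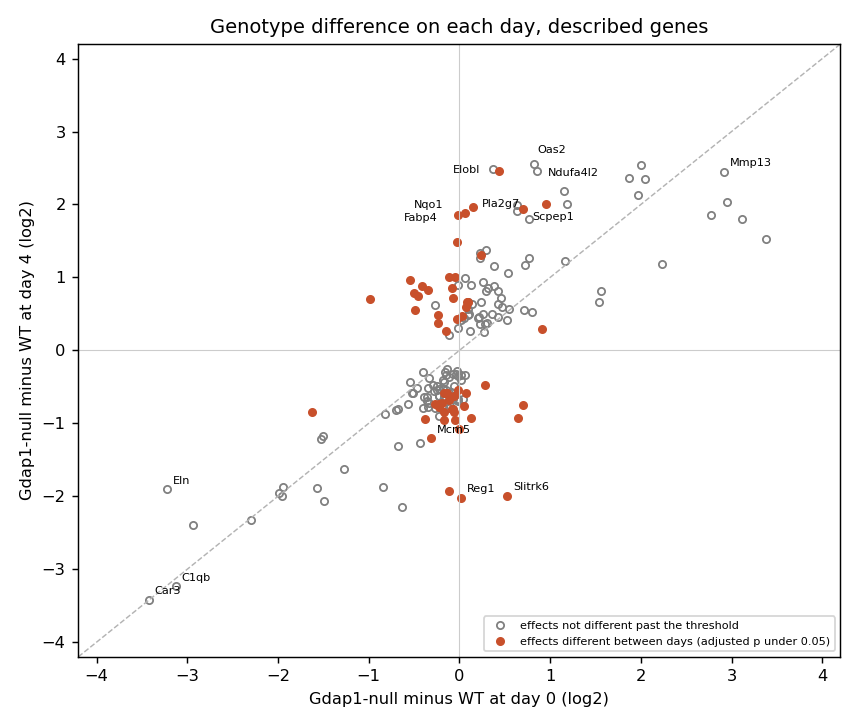
Genotype difference (KO minus WT, log2) at day 0 (horizontal axis) and at day 4 (vertical axis) for the described genes that were called at day 4; filled points passed the test of the difference between days, and the dashed line marks equal differences. Car3 and C1qb lie on or near the line, and Pla2g7, Elobl, Reg1 and Slitrk6 lie far from it.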

How the data were processed

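The deposited table held log2 levels of 41345 probe sets, 1 column per array, between 1.33 and 13.35. Affymetrix Expression Console made these values, per the submitters' processing notes. Its version, background correction, normalization and summary step are given in none of the sources used here. Values were used as deposited. Of the probe sets, 23521 had 1 gene symbol in the platform annotation, 1814 several and 16010 none. For each of 22180 genes 1 probe set was tested, and 1082 genes with several were given the one whose 12-array mean was highest. Low levels were not filtered. Arrays carry no read depth, so their number limits the precision.

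A linear model with 4 group means was fitted to all 12 arrays with limma 3.58.1 in R 4.3.3 (8 residual and 4.56 prior degrees of freedom). Two-sided moderated tests of KO minus WT at day 4, at day 0 and of their difference were adjusted over all genes by Benjamini-Hochberg. The code was checked on simulated data. Same-numbered WT and KO day 4 arrays deviated from their group means with correlations of -0.01, 0.18 and 0.12 over all genes, and replicate numbers were not taken as pairs. Single lists could still share an order of replicates. The mean of the actin and smooth muscle list was -0.96, -0.36 and -0.74 in WT and -0.75, -0.34 and -0.71 in KO day 4 arrays. Whether same-numbered arrays share a batch was not tested.

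Members and the 38 gene lists (993 of 1079 names measured) were chosen with earlier results of these data known. Lists are given by counts and medians, with no set test. The genes named were Gdap1, the transduced factors, the 15 largest called rises and 15 largest falls without overlap between groups (10 of each without WT day 4 replicate 1; receptors of smell and pheromones, pseudogenes, small RNAs and predicted or clone-named genes left out), up to 4 called members per list with the smallest p, all where 5 or fewer were called, the 2 with the smallest p where none was, and defining members. 9930111J21Rik2 passed the written pattern for clone names. Alternatives covered the low-level filter, scaling, probe-set choice, prior, array weights, arrays fitted, the replicate block and the omission of each day 4 array, and of each day 0 array for day 0 and the difference between days.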

Additional observations from a re-analysis of the deposited data

Results flagged for a closer look

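The genotype effect at day 4 was set against the effect at day 0 for each gene the text names, with limma's test of the difference adjusted over all genes. The genes below passed it. The values are differences between days in log2 units (KO minus WT at day 4, less KO minus WT at day 0), and the corresponding effects and p-values of many stand in the report. By this test 3.95% of all genes differed between days.

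Among genes of metabolism and of stress, a more positive effect at day 4 was measured for Nqo1 (1.83), Gclm (0.53), Gsta4 (0.79) and Slc2a3 (1.51). It was also more positive for Scpep1 (1.24), Elobl (2.02), Pla2g7 (1.81), Adssl1 (1.04), Fabp4 (1.87) and Trpc1 (0.93). Nqo1, Gclm, Elobl, Pla2g7, Fabp4 and Trpc1 were not called at day 0, and Gsta4 was lower in KO cells on both days. Mfn1 (0.42), the mitofusin, differed in the same direction. Fasn (-0.78), Rhot2 (-0.42), Letm1 (-0.52), and the respiratory chain genes Ndufs8 (-0.48), Uqcrq (-0.57) and Cyc1 (-0.44) had a more negative effect at day 4.

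The named genes of replication, mitosis and ribosome synthesis that passed had a more negative effect at day 4. The values were -0.89 for Mcm5, -0.57 for Rpa2, -0.53 for Cdc45, -0.68 for Uhrf1, -0.56 for Cdc20 and -0.55 for Cdc25c. They were -0.71 for Bop1, -0.90 for Cad, -0.78 for Nme1 and -0.52 for Mybbp1a. Trim28 (-0.81) and Tuba1a (-0.67) differed in that direction too.

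Of the genes of signalling and cell shape, the values were positive for Etv5 (0.79), Dusp5 (0.73), Hbegf (1.29), Ccn1 (1.12), Ccn2 (1.20), Ankrd1 (1.18), Amotl2 (0.57), Tpm2 (1.29), Myh9 (0.62), Perp (1.70) and Polk (0.47). They were also positive for Thy1 (0.58), Cd44 (0.43), Dkk3 (1.05), Pkp2 (1.52) and Erbb3 (1.04). Perp, Hbegf and Tpm2 were lower in KO cells at day 0 and higher at day 4. Negative values were found for Nt5e (-1.58), Igfbp5 (-1.05), Tbx3 (-0.61), Slurp1 (-1.08), Krt16 (-0.75), Reg1 (-2.04), Slitrk6 (-2.52) and Efhd1 (-1.81).

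Of the interferon and antigen presentation genes, Oas3 had a larger effect at day 4 (1.07), and Ifit1 (-3.74), Tapbpl (-0.74) and Psmb10 (-1.46) a more negative one. Ifit1 was called at day 0 and not at day 4 (1.22, adjusted p = 0.0968), and without WT day 4 replicate 1 its difference between days was -3.05 (adjusted p = 0.00172).

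Probe sets without a single gene symbol were outside the comparison of genes. In the same limma model over those probe sets alone, 689 were higher and 725 lower in KO cells at day 4, which is 7.93% of the 17824 tested. They carry no gene name here.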

How the results depend on the processing

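Of the 241 named genes, 192 were called; none of these changed sign under an alternative that was run, and 79 lost their call in at least 1. Small differences that were not called could change sign, as that of Cnn1 did without WT day 4 replicate 1 (0.34 to -0.18). Fitted to the 6 day 4 arrays alone, day 4 gave 1923 calls (748 higher, 1175 lower). With a 2-fold minimum it gave 330 (199 and 131), and day 0 and the difference between days gave 273 and 179. Omission of 1 day 4 array gave 2946 to 5929 calls at day 4 (1163 to 2402 higher, 1783 to 3527 lower), and omission of 1 array of either day 769 to 1936 at day 0 and 395 to 2140 for the difference. Array weights gave 2562 at day 0 and 1852 for the difference. Testing all probe sets gave 503 for the difference. A fit that left out 2 day 4 arrays at once, WT replicate 1 and KO replicate 2, gave 2165 at day 0 and 2521 for the difference. With the replicate number as a block, day 4 gave 4417 calls (1761 higher, 2656 lower) over all arrays and 1823 (700 and 1123) in the 6 arrays. The labels do not say whether the numbers pair the arrays, so whether a call lost under the block is a weaker effect was not tested. Low-level filtering, quantile normalization, centring, averaged probe sets and a trended robust prior left the day 4 count between 4397 and 4808. The cause of these changes was not tested. Fits that omit arrays have fewer residual degrees of freedom, and their day 4 count rose (5929 without WT day 4 replicate 1) or fell (2946 without WT day 4 replicate 3). The limits are the 3 arrays per group, the unstated normalization and a WT group of which 1 array stands apart.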
